A study of Mus musculus with 2 samples.

Results

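Fatty acid oxidation genes and targets of the peroxisome proliferator-activated receptors (PPARs) were followed in the colon of mice fed psyllium, a viscous fibre from seed husks. The set was a list of 45 genes. A gene entered when a probe set named that gene and no other, which held for 42 of the 45 among 22180 genes measured in all. Ucp2 and Acsl1 were not analysed here. Acot8 was named only together with Snx21 by 1 probe set, which read 191 on the psyllium array and 226 on the control array and was assigned to neither gene.

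The study holds 2 arrays of colon RNA from healthy male ICR mice, an outbred stock, aged 7 weeks. One array carried RNA of mice fed 10% psyllium for 5 days, and the other RNA of mice fed the same length of time without psyllium. The number of mice behind each array, the part of the colon and the handling of its muscle layers are not given in the sources used here. With 1 array per diet there was no replicate error and no test, so each difference below is between these 2 arrays only.

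Fatty acids enter mitochondria as carnitine esters and are shortened there in repeated rounds of dehydrogenation, hydration, a second dehydrogenation and thiolysis. Peroxisomes run a parallel chain on very long, branched and dicarboxylic acids and hand shortened products to mitochondria. PPARs are nuclear receptors that bind fatty acids and, paired with a retinoid X receptor, switch on many of these enzymes. Colonocytes are known for using fatty acids, above all microbial butyrate, as fuel.

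The promoter windows of 5 members described below, and of Acaa1a as the relative of Acaa1b, are shown first. They come from RefSeq on GRCm38.p6 and run 5′ to 3′ from 250 bases before to 50 bases after the start of the gene. Of the 45 genes 38 had an entry, and Vnn1, the member with the lowest difference, had none. In the Hadhb window the capitals mark the 72 bases between its start and that of Hadha, which is read in the opposite direction. In the other windows capitals mark the receptor-binding motif AGGTCA or its complement TGACCT, which among them occurs only in that of Plin2.
Hadhb, chr5:30155003-30155302, + strand: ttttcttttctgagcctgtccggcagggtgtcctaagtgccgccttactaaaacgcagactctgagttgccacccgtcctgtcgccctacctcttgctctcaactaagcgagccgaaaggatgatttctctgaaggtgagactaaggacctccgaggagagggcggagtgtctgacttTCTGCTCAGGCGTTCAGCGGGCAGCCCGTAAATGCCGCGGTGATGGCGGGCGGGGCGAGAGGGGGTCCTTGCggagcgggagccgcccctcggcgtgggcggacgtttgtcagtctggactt
Slc25a20, chr9:108661886-108662185, + strand: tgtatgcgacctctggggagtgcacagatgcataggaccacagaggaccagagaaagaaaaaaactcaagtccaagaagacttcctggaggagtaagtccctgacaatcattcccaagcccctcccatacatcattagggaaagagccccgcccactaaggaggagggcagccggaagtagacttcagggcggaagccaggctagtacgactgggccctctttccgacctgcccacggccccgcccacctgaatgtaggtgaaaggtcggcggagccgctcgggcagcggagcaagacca
Ppara, chr15:85735526-85735825, + strand: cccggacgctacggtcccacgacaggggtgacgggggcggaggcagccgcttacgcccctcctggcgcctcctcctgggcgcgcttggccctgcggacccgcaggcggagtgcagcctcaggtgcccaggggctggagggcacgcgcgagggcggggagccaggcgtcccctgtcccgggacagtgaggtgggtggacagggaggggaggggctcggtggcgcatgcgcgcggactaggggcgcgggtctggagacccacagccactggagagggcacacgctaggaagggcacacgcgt
Plin2, chr4:86670010-86670309, - strand: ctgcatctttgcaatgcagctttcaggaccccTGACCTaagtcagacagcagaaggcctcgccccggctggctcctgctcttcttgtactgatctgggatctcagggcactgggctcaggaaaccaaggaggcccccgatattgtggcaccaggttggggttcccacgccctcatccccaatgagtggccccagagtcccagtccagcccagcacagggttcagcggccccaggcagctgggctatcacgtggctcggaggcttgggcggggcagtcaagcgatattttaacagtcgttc
Acaa1b, chr9:119157044-119157343, - strand: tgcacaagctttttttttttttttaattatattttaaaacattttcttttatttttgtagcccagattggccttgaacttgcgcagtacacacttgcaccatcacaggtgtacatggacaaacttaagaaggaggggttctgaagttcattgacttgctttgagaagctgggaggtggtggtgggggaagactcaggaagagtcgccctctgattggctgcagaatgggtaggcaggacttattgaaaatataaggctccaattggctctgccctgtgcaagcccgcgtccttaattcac
Acaa1a, chr9:119341044-119341343, + strand: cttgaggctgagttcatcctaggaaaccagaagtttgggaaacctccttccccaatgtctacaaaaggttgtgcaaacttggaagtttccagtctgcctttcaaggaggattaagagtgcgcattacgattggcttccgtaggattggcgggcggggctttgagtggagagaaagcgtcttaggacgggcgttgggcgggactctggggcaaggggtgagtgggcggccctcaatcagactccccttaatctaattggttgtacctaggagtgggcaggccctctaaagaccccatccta

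In these windows the motif AGGTCA was found, on either strand, in 7 of the 38 member genes (18.4%) and in 18.1% of all 27025 genes with a window. The 7 were Pparg, Creb3l3, Cpt1a, Acadm, Acadvl, Acot4 and Plin2, and in Plin2 its first base lay at -218 from the start. The 13-base direct repeat AGGTCANAGGTCA, the classical PPAR element, which contains the shorter motif, was in none of the 38 and in 0.0481% of all genes. The 7 members with AGGTCA had a median log2 difference of -0.41, and the 28 measured members with a window and without it had one of -0.34. These are letter matches in short windows and say nothing of binding elsewhere.

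Members of the list were lower on the psyllium array almost throughout, mostly by small amounts. Of the 42 measured members 40 had a lower intensity with psyllium and 2 a higher one, Acox3 and Vnn3, whereas 50.2% of all genes were lower. The median log2 difference, psyllium minus control, was -0.34 (1.26-fold lower), against -0.0025 over all genes. At 1.5-fold 7 members were lower and 0 higher. The 7 were Vnn1, Slc25a20, Acaa1b, Acot4, Ppara, Plin2 and Cpt2. The background was 2.8% of all genes at least 1.5-fold lower and 3.42% at least 1.5-fold higher. Among the 11090 genes whose mean over both arrays lay at or above the median level, where 36 of the members fall, 2.26% were that much lower, 3.72% that much higher and 56.7% below 0. Between these limits 16 members lay from -0.585 to -0.3 and 15 from -0.3 to -0.1 on the log2 scale. Taken relative to the median of pan-epithelial genes, which was itself -0.28, 2 members were 1.5-fold lower and 0 higher, and 26 of 42 were below 0. Of all genes 0.762% were then 1.5-fold lower, 12.7% higher and 14.4% below 0. Taken relative to the absorptive colonocyte median of -0.41, the median of the members turned positive, at 0.069. How the layers of the colon were handled is not given. Different handling of the layers, fewer cells of a type and less RNA per cell therefore cannot be told apart.

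**Figure D1:**
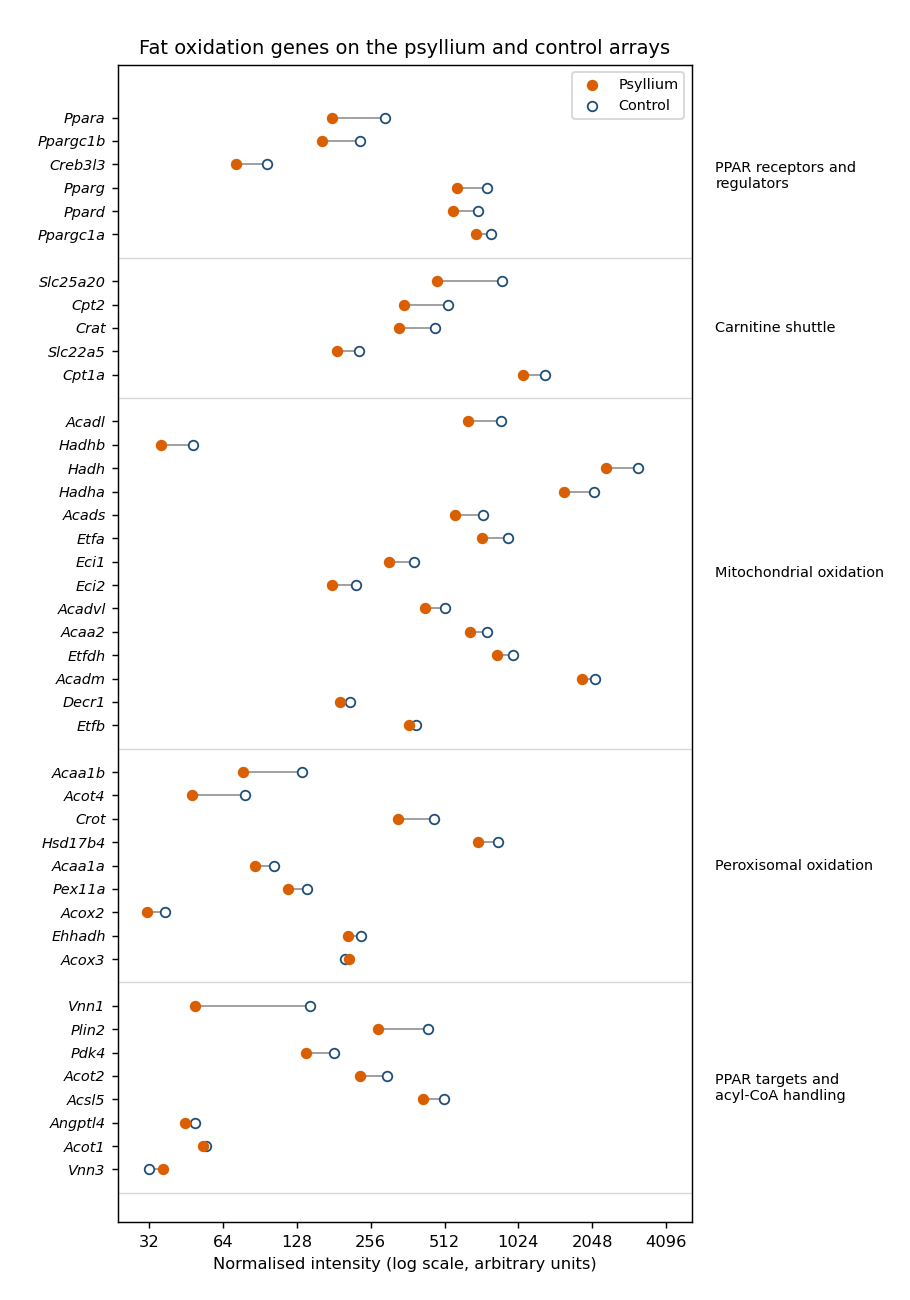
Normalised intensity of the 42 measured members on the psyllium array (filled) and the control array (open), on a log axis, grouped by role. In the deposited values the psyllium point lies left of the control point for 40 members. The exceptions are Acox3 and Vnn3, and the longest line is that of Vnn1, at 49.3 with psyllium and 145 without.

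All 6 receptors and regulators read lower with psyllium, with a median difference of -0.41 and a range from -0.71 to -0.19. Ppara, the receptor that drives fat oxidation in liver and gut, read 179 on the psyllium array and 292 on the control array, which is 1.63-fold lower. Pparg, the receptor known for fat storage and abundant in colonocytes, read 577 with psyllium and 766 without, a log2 difference of -0.41. Ppard, the broadly expressed receptor, read 555 with psyllium and 700.4 without, a log2 difference of -0.34. The order of the differences was thus Ppara, Pparg, Ppard, with gaps of 0.30 between Ppara and Pparg and 0.37 between Ppara and Ppard. There is no replicate error against which to judge that order.

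The coactivators of mitochondrial biogenesis differed in size. Ppargc1b read 163 on the psyllium array and 231 on the control array, 1.42-fold lower. Ppargc1a read 691 with psyllium and 790.2 without, 1.14-fold lower, the smallest difference of the 6. Creb3l3, a membrane-bound transcription factor that works with Ppara in mouse liver, read 72.6 with psyllium and 96.6 without, 1.33-fold lower.

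All 5 carnitine shuttle genes were lower with psyllium, with a median of -0.49. Slc25a20, the carrier that exchanges acylcarnitine for carnitine across the inner mitochondrial membrane, read 476 on the psyllium array and 876 on the control array. That is 1.84-fold lower, and 155th from the lowest of 22180 genes. Cpt2, which returns the acyl group to coenzyme A inside the mitochondrion, read 351 with psyllium and 530.5 without, 1.51-fold lower and just past the 1.5-fold limit. Its log2 difference no longer passed the limit after further quantile normalization (-0.55), removal of the intensity trend (-0.53) or 16 added units (-0.57). Cpt1a, the malonyl-CoA-sensitive entry enzyme, read 1070.2 with psyllium and 1313 without, 1.23-fold lower. The entry enzyme thus differed less than the carrier, by 0.58 on the log2 scale.

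Crat, which trades short acyl groups between carnitine and coenzyme A, had 2 probe sets that differed in size. The brighter read 334 on the psyllium array and 470.1 on the control array, a log2 difference of -0.49, and the dimmer read 79.4 with psyllium and 87.5 without, a difference of -0.14. The shuttle's median was the lowest of the 5 roles with the brighter probe set, but with the mean of probe sets it was -0.32, 4th of the 5. Slc22a5, the carnitine importer of the cell surface, read 187 with psyllium and 229.7 without, 1.23-fold lower.

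The enzymes of mitochondrial oxidation formed the tightest group. All 14 were lower with psyllium, none by 1.5-fold, with a median of -0.33 and a range from -0.45 to -0.093. Among the acyl-CoA dehydrogenases, which take the first step on different chain lengths, Acadl (long chain) read 640 with psyllium and 872 without, 1.36-fold lower. Acads (short chain) read 564 with psyllium and 737 without, 1.31-fold lower. Acadvl (very long chain) read 426 with psyllium and 513 without, and Acadm (medium chain) read 1868 with psyllium and 2109.6 without. The last 2 were 1.20-fold and 1.13-fold lower, so the dehydrogenases did not line up by chain length.

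Hadha and Hadhb encode the subunits of the trifunctional protein, which carries out the later steps on long chains. Hadha read 1575 on the psyllium array and 2091 on the control array. Hadhb read 35.7 with psyllium and 48.5 without, below the median level of all genes. These neighbours have 72 bases between their starts, in capitals in the Hadhb window shown above, and their log2 differences, -0.41 and -0.44, were 0.034 apart. With Hadhb this dim the gap is not firm, at 0.16 after removal of the intensity trend and 0.086 with 16 units added. Hadh, the dehydrogenase for shorter chains, read 2332 with psyllium and 3148 without, 1.35-fold lower, and the thiolase Acaa2 read 648 with psyllium and 764 without, 1.18-fold lower.

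Enzymes that prepare unsaturated chains were lower by 1.27-fold (Eci1, 303 with psyllium and 383 without), 1.25-fold (Eci2, 179 with psyllium and 224 without) and 1.10-fold (Decr1, 192 with psyllium and 211 without). Eci2 is also found in peroxisomes. The electron transfer flavoprotein and its dehydrogenase pass electrons from the acyl-CoA dehydrogenases to the respiratory chain. Its subunit Etfa read 731 on the psyllium array and 933 on the control array, 1.28-fold lower. Its partner Etfb read 367 with psyllium and 391 without, 1.07-fold lower, the smallest difference among the 14. Etfdh read 840.4 with psyllium and 976 without, 1.16-fold lower.

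Peroxisomal genes were more spread out than mitochondrial ones, from -0.81 to 0.053, and their median of -0.26 was nearer to 0. Further quantile normalization brought the medians closer, to -0.26 for peroxisomal and -0.30 for mitochondrial genes. Removal of the intensity trend gave -0.26 for peroxisomal and -0.27 for mitochondrial genes. There is no replicate error against which to judge that gap. Of 9 measured peroxisomal genes 8 were lower with psyllium, 2 of them by 1.5-fold. Relative to the pan-epithelial median the peroxisomal median changed sign, to 0.021. Acaa1b, a peroxisomal thiolase, read 77.1 on the psyllium array and 135 on the control array, 1.75-fold lower. Its close relative Acaa1a read 86.9 with psyllium and 104 without, 1.19-fold lower. The coding sequences of the pair are similar, so their values are uncertain where probes bind both. Their promoter windows shown above matched at 51.8% of aligned positions, where the median over 703 pairs of member genes was 49.7%. The windows held 43.7% (Acaa1b) and 53.3% (Acaa1a) G and C.

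Acot4, a thioesterase that frees dicarboxylic acids in peroxisomes, gave different values by probe set. One read 47.7 on the psyllium array and 78.8 on the control array, 1.65-fold lower. The other, at nearly the same mean level, read 59.5 with psyllium and 62.0 without, 1.04-fold lower. The mean of both was -0.39 on the log2 scale, so the place of Acot4 among the 7 rests on the first probe set. Crot, which makes medium-chain carnitine esters for export, read 332 with psyllium and 464 without, 1.40-fold lower.

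The oxidases and bifunctional enzymes of the peroxisome all differed by less than 1.5-fold. Acox3, an oxidase for branched chains, read 208 on the psyllium array and 201 on the control array, 0.053 higher on the log2 scale. Acox2, an oxidase of branched chains and bile acid intermediates, was dim, at 31.3 with psyllium and 37.1 without. The bifunctional enzymes Hsd17b4 and Ehhadh, which hydrate and dehydrogenate in series, were 1.21-fold lower (698 with psyllium and 843 without) and 1.13-fold lower (207 with psyllium and 234 without). Pex11a, a PPAR-responsive factor of peroxisome division, read 118 with psyllium and 141 without, 1.19-fold lower.

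The remaining PPAR targets and acyl-CoA handling genes held both the lowest and the highest difference of the whole set. Vnn1, an epithelial pantetheinase that splits pantetheine into cysteamine and vitamin B5, read 49.3 on the psyllium array and 145 on the control array. It was 2.94-fold lower, 23rd from the lowest of 22180 genes, and the 1 member past 2-fold, where 0.451% of all genes were as low. Vnn3, the neighbouring vanin gene, read 36.4 with psyllium and 32.1 without, 0.18 higher on the log2 scale, both values below the median level of all genes. Plin2, which coats lipid droplets, read 274 with psyllium and 438 without, 1.60-fold lower.

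Pdk4, the kinase that holds back glucose oxidation, read 139 on the psyllium array and 181 on the control array, 1.30-fold lower. Angptl4, a secreted inhibitor of lipoprotein lipase, was dim and read 44.7 with psyllium and 49.4 without, 1.10-fold lower. Acsl5, which activates fatty acids to acyl-CoA, read 420 with psyllium and 511 without, 1.22-fold lower. Pdk4 and Angptl4 were thus lower by less than 1.5-fold, with log2 differences of -0.38 and -0.14. Vnn1 and Plin2 of the same role were past that limit. PPAR activity was not tested.

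The thioesterase genes Acot2, Acot1 and Acot4 lie next to each other and are close relatives, so probes may read more than 1 of them. The mitochondrial enzyme Acot2 read 231 on the psyllium array and 299 on the control array, 1.30-fold lower. The cytosolic enzyme Acot1 read 53.3 with psyllium and 54.8 without, 1.03-fold lower. Within this cluster the log2 differences thus ran from -0.72 for the first Acot4 probe set to -0.039 for Acot1.

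**Figure D2:**
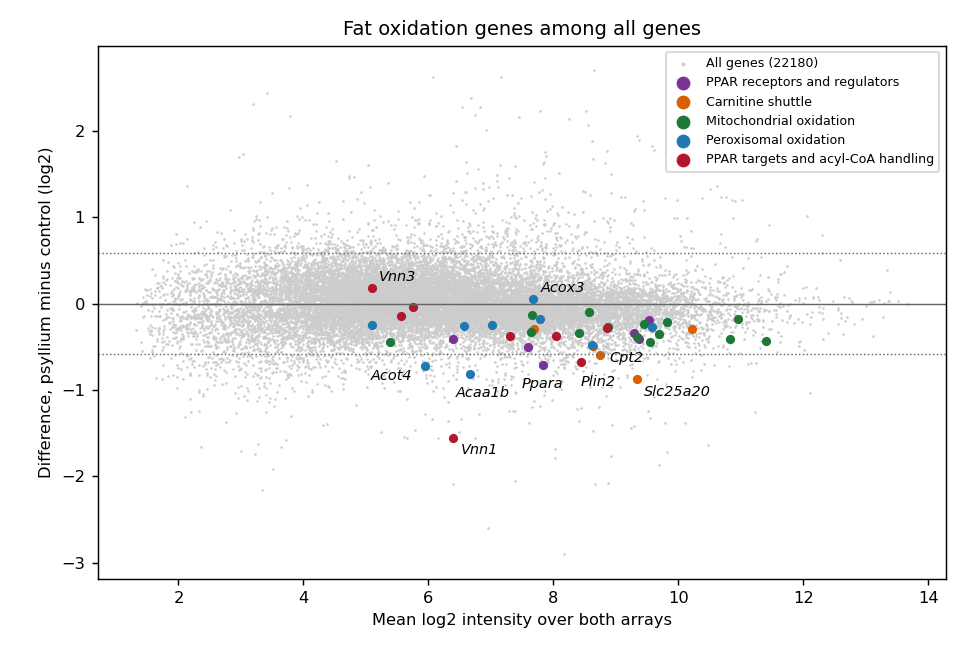
Log2 difference, psyllium minus control, against the mean log2 intensity of both arrays for 22180 genes (grey) and the members coloured by role. Dotted lines mark 1.5-fold. Most members sit below 0 at middle and high intensity, and 7 lie beyond the lower dotted line. Relative to the absorptive colonocyte median their median would be positive.

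Other genes of the same pathways differed in both directions, with a median nearer to 0 than that of the members. Members and lists were chosen with earlier results of these data known, so this contrast only describes the lists. Of 140 listed, 129 were measured, of which 94 (72.9%) were lower with psyllium and 34 higher. Of all genes 50.2% were lower, and 56.7% of those at or above the median level. Their median difference was -0.13, with 5 (3.88%) at least 1.5-fold lower and 1 at least 1.5-fold higher. Over all genes 2.8% were that much lower and 3.42% that much higher. The medians of the 6 lists lay from -0.15 to -0.10. The median was -0.15 for 22 mitochondrial enzymes outside the member list and -0.13 for 19 citric acid cycle genes, and 0 genes of either list differed by 1.5-fold. Of 12 peroxisome biogenesis genes 11 were lower, 0 by as much as 1.5-fold, and their median was -0.15.

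Other PPAR targets were mixed, with 17 of 28 (60.7%) lower, 11 higher, and 3 (10.7%) at least 1.5-fold lower. The shares over all genes were 50.2% lower and 2.8% at least 1.5-fold lower. The cytochrome P450 gene Cyp4b1 read 275 on the psyllium array and 538 on the control array, 1.96-fold lower. The intestinal fatty acid binding protein gene Fabp2 read 1803 with psyllium and 2899 without, 1.61-fold lower. The liver-type form Fabp1 was dim, at 37.5 with psyllium and 59.0 without, 1.58-fold lower. Among 27 other peroxisomal genes the hydroxyacid oxidase Hao2 read 685 with psyllium and 1792 without, 2.62-fold lower. Dim in that list were the acyl-CoA synthetase Slc27a2, at 46.9 with psyllium and 83.3 without (1.78-fold lower), and the thioesterase Acot6, at 47.4 with psyllium and 30.6 without (1.55-fold higher). Fabp1, Slc27a2 and Acot6 fall outside the naming rule and were chosen after their values were seen. Partners of the receptors, such as retinoid X receptors and coregulators, numbered 21, with a median of -0.10 and 0 beyond 1.5-fold.

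**Figure D3:**
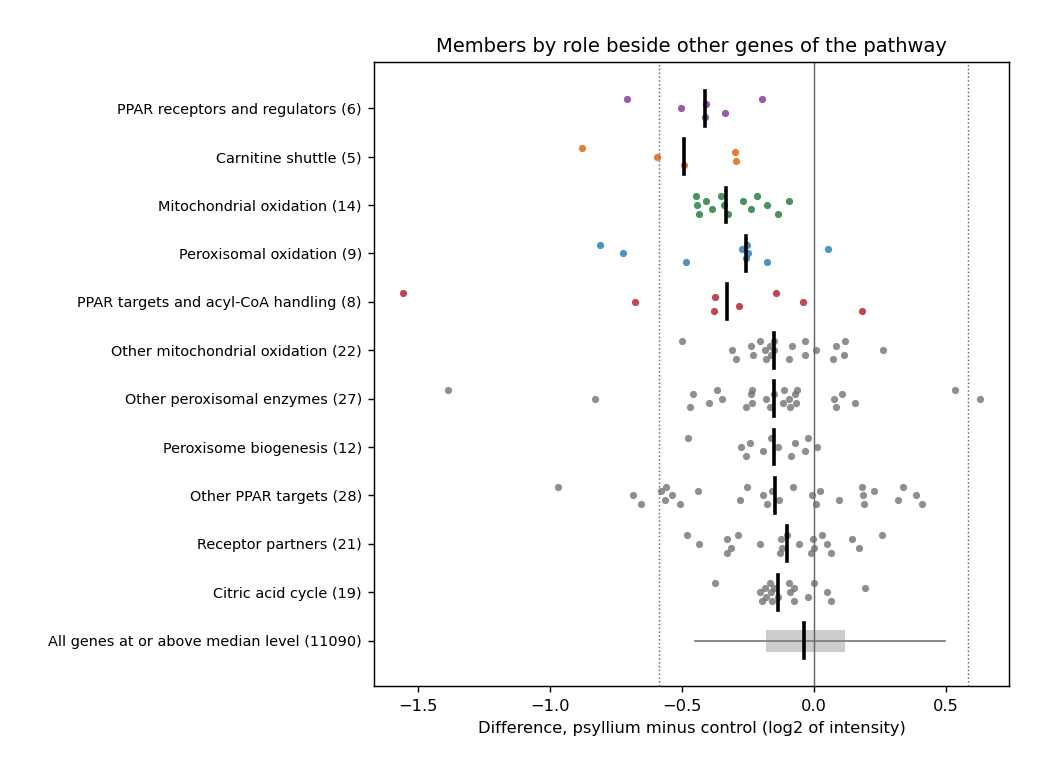
Log2 difference, psyllium minus control, of each measured member by role (coloured), above other genes of the pathway (grey points) and the 11090 genes at or above the median level (box, quartiles; line, 5th to 95th percentile). Black bars are medians and dotted lines mark 1.5-fold. The medians of the 5 roles lie from -0.49 to -0.26 and those of the other lists from -0.15 to -0.10. Members and lists were chosen with earlier results of these data known. Centring on the pan-epithelial median turns the peroxisomal median positive, and centring on the absorptive colonocyte median also turns the mitochondrial and target medians.

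Markers of several cell types moved between the arrays along with the members. Of 23 pan-epithelial genes 22 were lower with psyllium, with a median of -0.28 and a summed intensity of 31582 on the psyllium array and 37190.2 on the control array. Of 19 absorptive colonocyte genes 18 were lower, with a median of -0.41 and sums of 54012 with psyllium and 68364 without. Of the 42 members 26 had a difference below the pan-epithelial median and 16 one below the absorptive colonocyte median, as had 14.4% and 7.12% of all genes. The summed intensity of the members was 18408 with psyllium and 23643 without. The part of the epithelial shift in the members' differences was not tested.

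Genes of the wall ran the other way. All 15 smooth muscle genes were higher with psyllium, with a median of 1.19 and sums of 32122 on the psyllium array and 13532 on the control array. All 14 fibroblast and matrix genes were higher, with a median of 1.30 and sums of 19137 with psyllium and 7403 without. Goblet cell genes, which are epithelial, were also higher, 12 of 12, with a median of 0.31 and sums of 41244 with psyllium and 33991 without. Macrophage genes had a median of 0.43, 11 of 11 higher (sums of 1973 with psyllium and 1413 without), and lymphocyte genes one of -0.65, 10 of 11 lower (sums of 690.0 with psyllium and 1043 without). Their part in the members' differences was likewise not tested.

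Fat, striated muscle and liver also express many of the members. Of 10 adipocyte genes 6 were higher with psyllium, with a median of 0.18 and sums of 1910.2 on the psyllium array and 1628 on the control array. The defining fat genes Adipoq (31.7 with psyllium and 27.2 without) and Lep (23.4 with psyllium and 21.3 without) were dim. Brighter genes of this list, which other cells also express, went both ways. Car3 (289 with psyllium and 191 without, 1.51-fold), Fabp4 (349 with psyllium and 292 without) and Pck1 (751 with psyllium and 571 without) were higher. Lpl (231 with psyllium and 259 without), Lipe (75.2 with psyllium and 91.5 without) and Cidec (63.0 with psyllium and 85.3 without) were lower. Brown fat and striated muscle genes had a median of 0.46, with 8 of 10 higher, 5 of them by 1.5-fold, and sums of 923 with psyllium and 556 without. The striated actin gene Acta1 (289 with psyllium and 96.2 without) was 1.59 higher on the log2 scale. The muscle creatine kinase gene Ckm (223 with psyllium and 128 without) was 1.75-fold higher. Tcap (86.9 with psyllium and 57.4 without) and Tnnt3 (77.3 with psyllium and 62.2 without) were also higher. Dim striated muscle genes went both ways. Myh4 (23.5 with psyllium and 14.5 without) and Myoz1 (28.9 with psyllium and 27.0 without) were higher. Myh7 (57.9 with psyllium and 61.0 without) and Tnni2 (53.1 with psyllium and 53.8 without) were slightly lower. Brown fat's Ucp1 read 29.7 with psyllium and 27.9 without. Dio2, dim as well, read 53.5 with psyllium and 27.8 without, 1.92-fold higher. Of 9 hepatocyte genes 5 were higher and 4 lower, with sums of 789 with psyllium and 1015 without. Tat (514 with psyllium and 739 without) carried that gap, and without it the sums were 275 with psyllium and 276 without. Albumin, Alb, read 17.6 with psyllium and 16.6 without. Small intestinal enterocyte genes had a median of -0.43, with 10 of 10 lower and sums of 2159 with psyllium and 2777 without. No marker read 0.

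**Figure D4:**
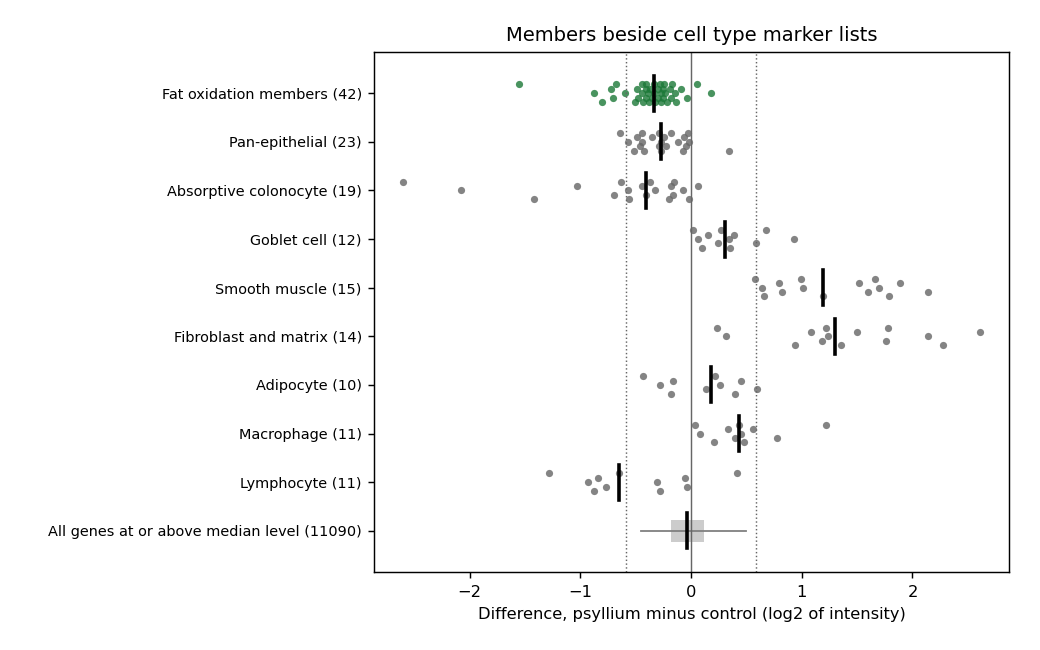
Log2 difference, psyllium minus control, of the 42 members and of cell type marker genes (points), with medians as black bars; the box and line show quartiles and the 5th to 95th percentile of the 11090 genes at or above the median level. The members' median, -0.34, lies between those of pan-epithelial (-0.28) and absorptive colonocyte genes (-0.41), so its sign depends on which of them it is set against.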

How the data were processed

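Per the labels' protocols, total RNA of mouse colon was labelled with biotin for whole-transcript arrays. The authors' deposited values are linear normalised intensities, 1 for each probe set. The submitters' processing notes list RMA and Affymetrix Expression Console but no versions. No source used here says whether RMA's log2 output was converted back. Their medians were 49.8 on the psyllium array and 48.9 on the control array. If the arrays were equalised, as RMA usually does, differences are relative to the other transcripts.

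Of 41345 probe sets, 23521 named 1 gene in GEO's platform annotation, 1814 several and 16010 none here, and only the first were used. Symbols were updated by gene number in a RefSeq table of GRCm38.p6, which held 23328 of the 23521. Of the 22180 genes 1082 had more than 1 probe set, and the brightest by mean log2 intensity stood for the gene. Differences are log2 psyllium minus log2 control with no pseudocount and no filter, computed with Python 3.11.15, pandas 2.3.3 and numpy 2.4.6, and promoter windows were aligned with Biopython 1.88. Between the 2 brightest probe sets of a gene, both at or above the median level, the median absolute gap of the differences was 0.16 over 332 genes. The number of arrays limits the precision, and no p-value is given. The procedure was tested on simulated data, which cannot stand in for replicate arrays.

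Members were sorted by role, and other pathway genes and cell markers were listed by hand. Members and lists were chosen with earlier results of these data known. Every member is named. Of the other pathway lists, genes at least 1.5-fold different at or above the median level are named, and fat, liver and brown fat markers are given as defining markers. The brighter genes of those lists, and the dim Plin1, Retn, Dio2, Myh4, Myh7, Myoz1 and Tnni2, were named after their values were seen. The alternatives were the mean of probe sets, quantile normalization, removal of the intensity trend by lowess (statsmodels 0.14.6), genes at or above the median level, 16 units added before log2, centring on epithelial genes, a 2-fold limit, and Eci2 counted as peroxisomal. Centring on absorptive colonocyte genes, and Acot8 added from its shared probe set, were chosen after seeing the data.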

Additional observations from a re-analysis of the deposited data

How the results depend on the processing

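No paired analysis was possible because each diet has 1 array. An alternative value was taken as moved when it shifted by more than 0.16 on the log2 scale, the median gap between probe sets of a gene, and a count when it shifted by over 1.5 times. Of 64 summary values under an alternative, 47 kept their direction and size by these limits. Some of these could hardly move. Only Crat and Acot4 had more than 1 probe set, and the restriction to genes at or above the median level left single differences as they were. The 47 therefore do not measure how firm the results are. The mean of probe sets moved the carnitine shuttle median to -0.32. A 2-fold limit left 1 member lower, Vnn1. Centring on the pan-epithelial median shifted all genes by 0.28 and gave medians of -0.061 for the members, -0.055 for mitochondrial, 0.021 for peroxisomal, -0.13 for regulator, -0.22 for shuttle and -0.052 for target genes, with 2 members 1.5-fold lower, Slc25a20 and Vnn1. Over all genes 0.762% were then 1.5-fold lower and 12.7% higher, against 2.8% and 3.42% as deposited. Centring on the absorptive colonocyte median, chosen after seeing the data, shifted all genes by 0.41. It gave 0.069 for the members, 0.075 for mitochondrial, 0.15 for peroxisomal, -0.0045 for regulator, -0.086 for shuttle and 0.078 for target genes, with 1 member 1.5-fold lower, Vnn1, and 1 higher, Vnn3. All genes then split into 0.464% lower and 23.7% higher. Both shifts are set by the subtracted value. Under further quantile normalization, trend removal and added units, 40 of 42 members stayed below 0, with 6, 6 and 5 members 1.5-fold lower. Dim members (Hadhb, Acox2, Acot1, Acot4, Angptl4 and Vnn3 lay below the median level) and the psyllium value of Vnn1 limit those folds.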
